A study of Mus musculus with 8 samples.

Results

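The genes described here encode 10 subunits of glutamate receptors: the AMPA receptor genes Gria1, Gria2, Gria3 and Gria4, the kainate receptor genes Grik1, Grik2, Grik4 and Grik5, the NMDA receptor gene Grin1 and the metabotropic receptor gene Grm7. They were taken by symbol from a count table of 24033 named genes of the mouse, and all 10 passed the low-count filter that left 13639 genes for testing. The tissue was the lumbar L4 to L6 dorsal root ganglion (DRG), where sensory neurons and the satellite glia around them lie outside the cord, 24 h after 1 sciatic nerve was crushed. There were 4 injury libraries, from the side of the crush, and 4 naive libraries, from the uninjured side; the naive ganglia therefore also came from mice with a crushed nerve. Each repeat drew on 2 mice, the tissue is described as dissociated, and no transgene or drug is named. The sources used here do not state strain, sex or age.

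Glutamate is the transmitter that sensory neurons release onto the spinal cord, and the neurons carry glutamate receptors themselves, on their central terminals, cell bodies and peripheral endings. AMPA, kainate and NMDA receptors are cation channels built from 4 subunits, and the mix of subunits sets how a channel gates and whether calcium passes. Metabotropic receptors signal through G proteins, and those of group III, to which Grm7 belongs, sit mostly on nerve terminals and restrain transmitter release. The comparison asks which of these transcripts differ between the crushed and the uninjured side after 24 h.

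The libraries held between 15422482 and 29368107 counts of named genes. The unit of level is CPM, a gene's counts relative to its library's total, with TMM scaling to correct for library composition. Calls were made at an adjusted p under 0.05 in edgeR's quasi-likelihood test over all 13639 genes. The injury label was checked with Atf3, a stress-induced transcription factor, at 49.0 to 73.1 CPM in naive and 277 to 357 CPM in injury libraries, and with Sox11, a growth-associated transcription factor gene, at 48.4 to 51.8 and 262 to 399 CPM. Naive replicate 1 stood apart on the second principal component of log2 CPM (46.6, against -21.1 to 11.3 in the other libraries), and results that rest on it are given without it where they differ. In bulk tissue, fewer cells of a type and less RNA per cell cannot be told apart. The kit counts transcript ends, so levels are not divided by transcript length.

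Of the 10 receptor genes, 4 fell after injury: Gria2, Gria1, Grik1 and Grm7. None rose. Over all genes tested, 4.47% were called lower and 8.12% higher. In 6 of the 10 genes every injury library lay below every naive library, a pattern found in 7.02% of the genes tested. Besides the 4 called genes these were Gria3 and Grik4, whose adjusted p missed the threshold at 0.0809 and 0.0613. With the replicate number as a block both passed (0.0480 and 0.0414), which made 6 genes called lower and 0 higher, where 5.71% and 9.13% of all genes were. The median log2 fold change of the 10 genes was -0.32, against -0.004 over all genes tested. The log2 fold change was below 0 for 9 of the 10, against 50.7% of all. Because the 10 genes were chosen with earlier results of these data known, their counts and median describe the set and are no independent test. None of the 10 genes was higher even at an unadjusted p under 0.05. DESeq2 called 5 receptor genes lower and 0 higher (5.94% and 8.98% of all genes), and limma-voom called 4 and 0 (4.54% and 8.12%).

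**Figure D1:**
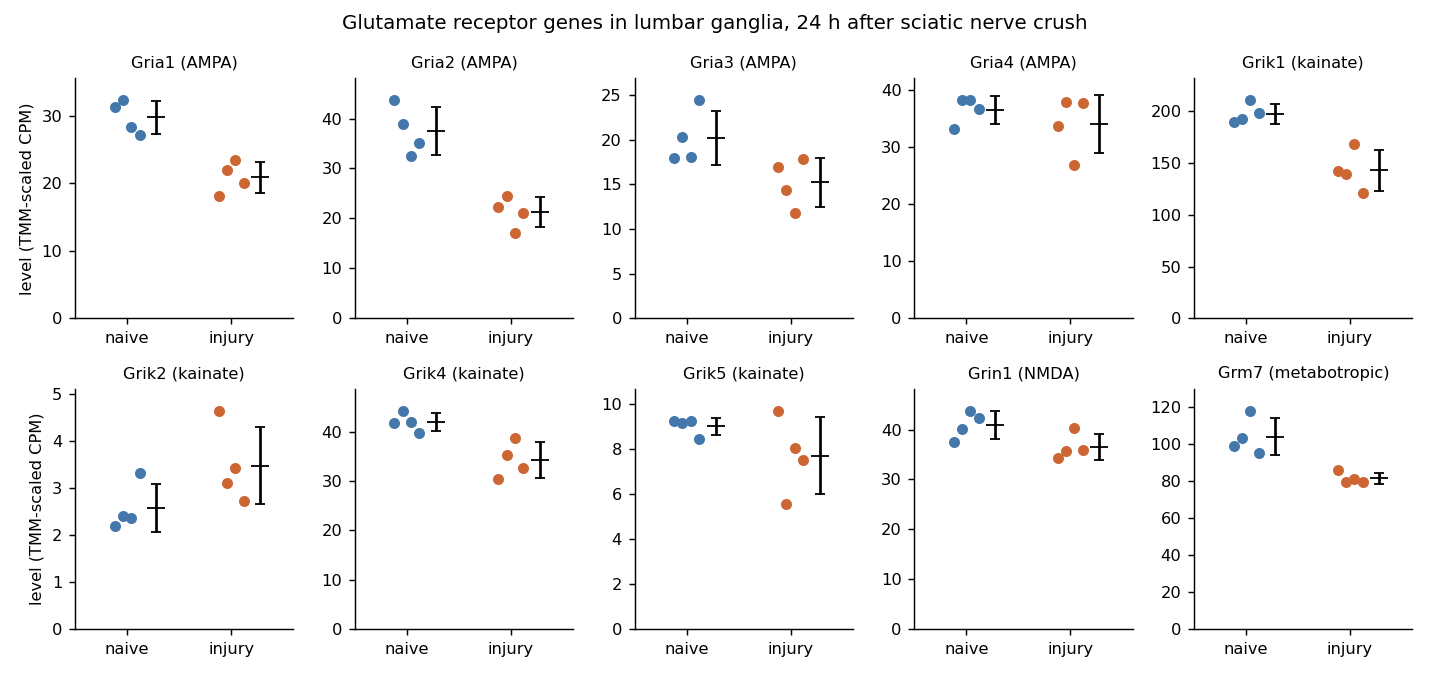
Level (TMM-scaled CPM, linear axis from 0) of each of the 10 receptor genes in the 4 naive and 4 injury libraries; dots are libraries and the bar beside them is the mean with its SD. Injury libraries lie wholly below naive ones for Gria1, Gria2, Gria3, Grik1, Grik4 and Grm7, and the groups overlap for Gria4, Grik2, Grik5 and Grin1.

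The AMPA receptor genes did not move alike. Gria2 (chromosome 3, 80681450 to 80802835 on GRCm38, minus strand) encodes the subunit that, once its transcript is edited, makes AMPA receptors nearly impermeable to calcium. Its naive libraries 1 to 4 held 43.7, 38.9, 32.4 and 35.1 CPM, and its injury libraries 22.3, 24.4, 17.1 and 21.1 CPM. The lowest naive library was thus above the highest injury library. The mean fell from 37.5 ± 4.89 to 21.2 ± 3.04 CPM (SD, n = 4), 1.76-fold, with a log2 fold change of -0.82 ± 0.13 (SE), a 95% interval of -1.08 to -0.56 and an edgeR adjusted p of 5.03e-05. Over the alternatives tried, the adjusted p of Gria2 ranged from 4.48e-08 to 0.000393.

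Gria1 (chromosome 11, 57011387 to 57330244) encodes a subunit that lets calcium through when it is assembled without the Gria2 product. It was at 31.3, 32.3, 28.3 and 27.1 CPM in the naive libraries and at 18.1, 21.9, 23.4 and 20.1 CPM in the injury libraries. The groups did not overlap, and Gria1 fell 1.43-fold (log2 fold change -0.51 ± 0.12, adjusted p = 0.00462). Gria3 (chromosome X, 41400854 to 41678601), another AMPA subunit gene, was at 17.95, 20.3, 18.03 and 24.4 CPM and at 16.9, 14.4, 11.8 and 17.8 CPM. The lowest naive and the highest injury library of Gria3 were close, and its log2 fold change of -0.41 ± 0.15 had a 95% interval of -0.73 to -0.10. The adjusted p of Gria3 ranged from 0.0359 to 0.288 over the alternatives tried, the highest without naive replicate 4.

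Gria4 (chromosome 9, 4417896 to 4796234), whose product is known for fast-gating AMPA receptors, was at 33.1, 38.1, 38.2 and 36.6 CPM in naive and at 33.6, 37.9, 26.9 and 37.7 CPM in injury libraries. The groups overlapped, and 3 of the 4 injury libraries lay inside the naive range. The 95% interval of its log2 fold change ran from -0.34 to 0.13 (adjusted p = 0.649) and did not meet that of Gria2; the difference between the genes was not itself tested.

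The make-up of the AMPA counts within each library, which does not depend on scaling between libraries, also differed between the groups. Gria2 took 34.7%, 30.0%, 27.7% and 28.5% of the 4 genes' summed counts in naive libraries and 24.5%, 24.8%, 21.6% and 21.9% in injury libraries. Gria4 took 26.2%, 29.4%, 32.6% and 29.7% in naive and 37.0%, 38.4%, 34.0% and 38.9% in injury libraries. Neither share overlapped between the groups. Gria2 had the most AMPA counts in naive replicates 1 and 2, and Gria4 had the most in naive replicates 3 and 4 and in all 4 injury libraries. The shares of Gria1 (22.0% to 24.9% in naive and 19.9% to 29.6% in injury libraries) and Gria3 (14.2% to 19.8% and 14.6% to 18.6%) overlapped. The summed AMPA level was 117 to 129.6 CPM in naive and 79.2 to 98.6 CPM in injury libraries. These shares are a description, with no test.

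**Figure D2:**
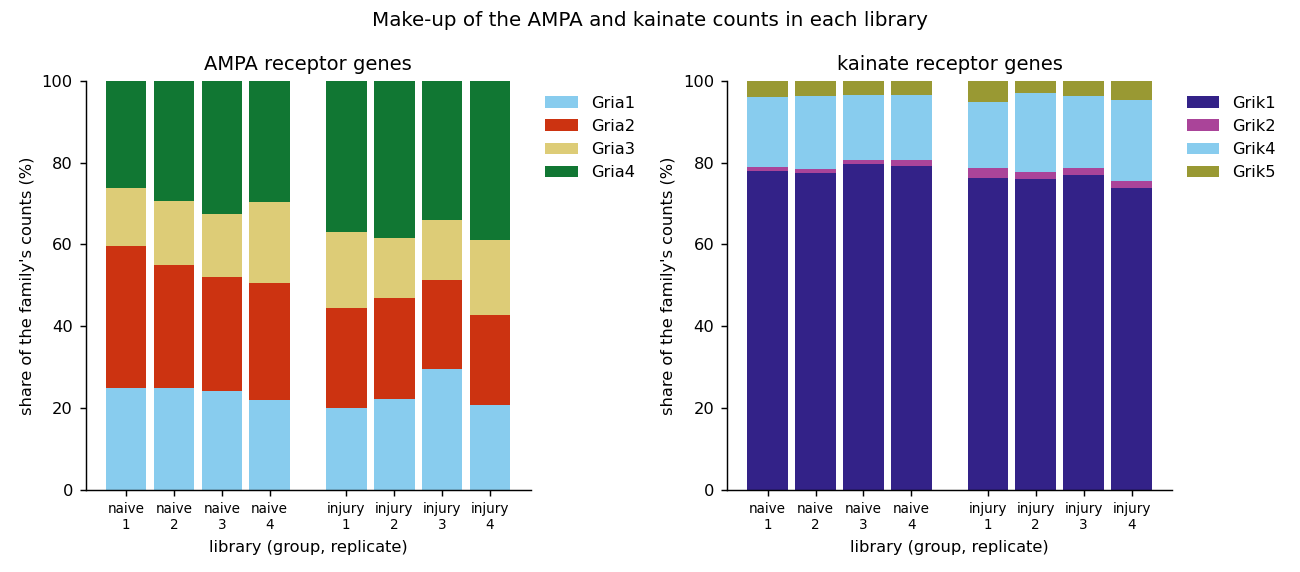
Share (%) of the summed counts of the AMPA genes (left) and of 4 kainate genes, without Grik3 (right), taken by each gene in each of the 8 libraries. The Gria2 band covers 27.7% to 34.7% in naive and 21.6% to 24.8% in injury libraries, and the Gria4 band 26.2% to 32.6% and 34.0% to 38.9%.

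Among the AMPA genes, Gria2 is set apart by the editing of a glutamine codon in the pore loop, the Q/R site. The enzyme ADARB1 recodes this codon to arginine in the RNA. The codon and 21 coding bases on each side are shown, before editing, as spliced in GENCODE M21 transcripts (GRCm38). The codon is in capitals, so that Gria2 can be set beside its relatives. In Grik1 and Grik2 the stretch runs from exon 12 into exon 13 and is not continuous in the genome.
Gria2: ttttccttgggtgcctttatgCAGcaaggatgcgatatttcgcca
Gria1: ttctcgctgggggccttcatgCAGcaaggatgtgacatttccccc
Gria3: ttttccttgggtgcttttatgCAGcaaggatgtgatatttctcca
Gria4: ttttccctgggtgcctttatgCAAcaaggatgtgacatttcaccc
Grik1: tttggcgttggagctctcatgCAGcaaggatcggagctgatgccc
Grik2: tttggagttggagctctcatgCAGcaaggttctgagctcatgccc
In Gria2 the stretch lies in exon 11 on the minus strand, chr3:80706890-80706934. It differs from that of Gria3 at 3 of 45 bases, from Gria4 at 6, from Gria1 at 9, from Grik1 at 16 and from Grik2 at 18. Gria2, Gria1, Gria3, Grik1 and Grik2 share the codon CAG, and Gria4 has the synonymous CAA. Of these, Gria2, Grik1 and Grik2 are the genes known to be edited at this site. Counts per gene cannot show whether a transcript was edited.

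Of the 2 tested genes in the editing list, Adarb1, whose product edits the Q/R site, rose and Adar did not pass the test. Adarb1 was at 22.0, 23.4, 21.5 and 23.1 CPM in naive and at 24.8, 33.0, 28.6 and 32.1 CPM in injury libraries. The groups did not overlap, and Adarb1 rose 1.31-fold (log2 fold change 0.40 ± 0.12, adjusted p = 0.0269). The call was lost without naive replicate 3 (0.0884) or 4 (0.0532), without injury replicate 2 (0.113) or 4 (0.101), and with library totals in place of TMM (0.0532). Adar had means of 46.2 ± 8.24 and 46.1 ± 4.63 CPM, with a 95% interval of -0.25 to 0.23 for its log2 fold change. Adarb2, which encodes a related RNA-binding protein of the brain with no known editing activity, had too few counts to be tested.

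Promoters were also searched for short motifs, and that of Gria2 held the longest and rarest of them, the RE1 core. A longer motif is expected to match fewer promoters, and this one was already known from Gria2. Neither its rarity nor its match in Gria2 is therefore a test. RefSeq promoters (GRCm38.p6, 250 bases before to 50 after the annotated start) were found for 7 of the 10 genes, with 2 for Grm7. Gria1, Gria3 and Grik1 had none, so Gria1 and Grik1, which fell, were not searched. The core of the RE1 element, which binds the neuronal gene repressor REST and is known from Gria2 regulation, was searched on both strands as its left part AGCACC and its right part GGACAG with any 2 bases between them. It occurs in 17 of 32851 promoters, 0.0517%, and among the 8 receptor gene promoters only in that of Gria2. The Gria2 promoter, chr3:80802786-80803085 on the minus strand, is shown with the match in capitals, where it reads in the reverse direction and starts 170 bases before the annotated start.
Gria2 promoter: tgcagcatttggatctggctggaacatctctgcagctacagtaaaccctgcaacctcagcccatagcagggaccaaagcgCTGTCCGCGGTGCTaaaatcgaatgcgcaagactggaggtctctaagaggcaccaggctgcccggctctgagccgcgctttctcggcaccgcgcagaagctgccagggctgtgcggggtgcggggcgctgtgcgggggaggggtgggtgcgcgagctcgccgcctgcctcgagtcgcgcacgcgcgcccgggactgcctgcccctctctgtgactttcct
Neither an AP-1 site (TGANTCA, in 7.81% of all promoters) nor a cyclic AMP response element (TGACGTCA, 1.79%) was found in the 8 promoters on either strand. The GC box (GGGCGG, 35.7%) was found in 5 of them, of Grik4, Grik5, Grin1 and both of Grm7. A match or its absence describes these windows alone.

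Among the kainate receptor genes, Grik1 (chromosome 16, 87895900 to 88290265) had the highest level of the 10 genes. It encodes GluK1, the main kainate subunit of small sensory neurons. Its naive libraries held 189, 192, 211 and 198 CPM, and its injury libraries 143, 139, 169 and 121 CPM. Every injury library was below every naive library, and the mean fell from 198 ± 9.47 to 143 ± 19.7 CPM, 1.38-fold (log2 fold change -0.47 ± 0.08, adjusted p = 0.000176). Over the alternatives its adjusted p ranged from 1.07e-06 to 0.00153.

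Grik4 (chromosome 9, 42518135 to 42944493) and Grik5 (chromosome 7, 25009849 to 25072346) encode the high-affinity subunits, which need a partner such as GluK1 to form a channel. Grik4 was at 41.9, 44.3, 42.1 and 39.9 CPM in naive and at 30.4, 35.4, 38.8 and 32.8 CPM in injury libraries. The groups did not overlap; the log2 fold change was -0.29 ± 0.10 with a 95% interval of -0.50 to -0.08. Besides the block, Grik4 passed the threshold with DESeq2 (adjusted p = 0.0337), with library totals (0.0223), among genes of 5 CPM or more (0.0413) and without injury replicate 3 (0.0264), and its range over the alternatives was 0.0223 to 0.161. Grik5 was at 9.22, 9.15, 9.24 and 8.45 CPM in naive and at 9.69, 5.54, 8.06 and 7.51 CPM in injury libraries. The injury libraries of Grik5 spread on both sides of the naive ones, with a 95% interval of -0.64 to 0.19 (adjusted p = 0.555).

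Grik2 (chromosome 10, 49094833 to 49788766), the GluK2 gene, was the least abundant of the 10 genes and the only one with a log2 fold change above 0. It was at 2.20, 2.41, 2.37 and 3.33 CPM in naive and at 4.65, 3.12, 3.44 and 2.72 CPM in injury libraries. The groups overlapped, and its 35 to 105 counts a library left a wide 95% interval of -0.23 to 1.09 for the log2 fold change (adjusted p = 0.461). Of the summed counts of Grik1, Grik2, Grik4 and Grik5, which leave out the kainate gene Grik3, Grik1 took 77.5% to 79.7% in naive and 73.8% to 77.0% in injury libraries, which did not overlap. The share of Grik2 was 0.894% to 1.33% and 1.57% to 2.48%, which did not overlap either. Shares of Grik4 and Grik5 overlapped. The summed level of these 4 kainate genes was 243 to 265 CPM in naive and 164 to 219 CPM in injury libraries.

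Grin1 (chromosome 2, 25291181 to 25319187) encodes the subunit that every NMDA receptor contains. It was at 37.5, 40.1, 43.7 and 42.4 CPM in naive and at 34.2, 35.6, 40.4 and 35.9 CPM in injury libraries. The ranges overlapped, and the 95% interval of its log2 fold change was -0.37 to 0.04 (adjusted p = 0.328). An antisense gene, Grin1os, overlaps its exons, and whether the counting used strand is not stated here, but Grin1os had 2 counts in all 8 libraries together.

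Grm7 (chromosome 6, 110645581 to 111567230), the metabotropic receptor gene, was the second most abundant of the 10. Its naive libraries held 99.0, 103, 118 and 94.9 CPM and its injury libraries 85.9, 79.5, 81.0 and 79.4 CPM. The injury libraries lay close together and wholly below the naive ones. The mean fell from 104 ± 10.01 to 81.4 ± 3.02 CPM, 1.27-fold (log2 fold change -0.35 ± 0.08, adjusted p = 0.00281), and the adjusted p over the alternatives ranged from 0.000260 to 0.0213.

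The order of levels in naive libraries was Grik1, Grm7, Grik4, Grin1, Gria2, Gria4, Gria1, Gria3, Grik5 and Grik2. The ranges over libraries of neighbours overlapped from Grik4 to Gria4 and were separate elsewhere. In injury libraries the order was Grik1, Grm7, Grin1, Grik4, Gria4, Gria2, Gria1, Gria3, Grik5 and Grik2, with Gria2 now below Gria4 without overlap and overlapping Gria1. Against all genes tested, mean levels stood between percentile 18.9 (Grik2) and percentile 91.2 (Grik1).

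**Figure D3:**
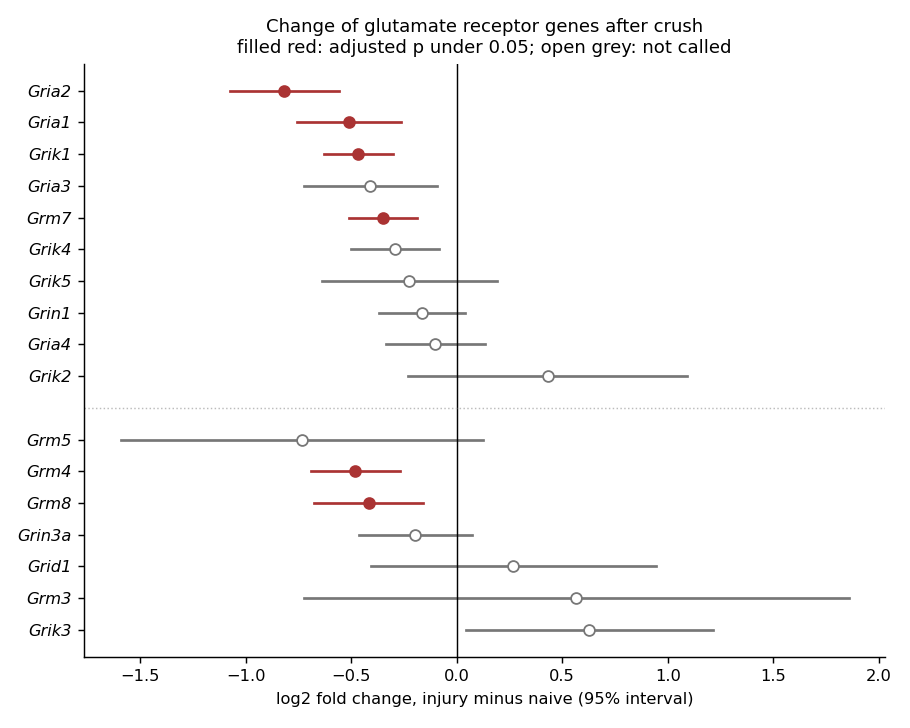
Log2 fold change (injury minus naive, x axis) with its 95% interval for the 10 receptor genes (above the dotted line) and the 7 other glutamate receptor genes that were tested (below). Filled symbols are called lower; these are Gria2, Gria1, Grik1 and Grm7 above the line and Grm4 and Grm8 below it.

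Injury replicate 3 was at opposite ends of the injury group for different receptor genes. Among the injury libraries it had the lowest Gria2, Gria3 and Gria4 levels (17.1, 11.8 and 26.9 CPM) and the highest Gria1, Grik1, Grik4 and Grin1 levels (23.4, 169, 38.8 and 40.4 CPM). Mrgprd, a receptor gene of non-peptidergic neurons that was looked at after these values were seen, was also highest among injury libraries there, at 93.4 CPM against 63.0, 75.7 and 66.7 CPM, with 60.6, 84.2, 109 and 108 CPM in the naive libraries. Its part in the result was not tested. Without injury replicate 3 the 4 called genes were called again, and Grik4 was added.

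Of 16 other glutamate receptor genes, 7 were tested, and 2 of these fell and none rose, also with DESeq2, limma-voom and the block. For this list and those that follow, the share of all genes tested was 4.47% called lower and 8.12% called higher. Both that fell, Grm4 and Grm8, are group III metabotropic receptor genes like Grm7, while Grm6, the remaining group III gene, known from the retina, was listed at 0. Grm4 was at 41.8 to 49.9 CPM in naive and 29.5 to 36.7 CPM in injury libraries (log2 fold change -0.48 ± 0.10, adjusted p = 0.00191). Grm8 was at 23.8 to 29.9 CPM in naive and 17.1 to 22.9 CPM in injury libraries (-0.42 ± 0.12, adjusted p = 0.0264). The Grm8 call was lost without naive replicate 2 (0.1002) or 3 (0.0643) and without injury replicate 2 (0.0599), 3 (0.0819) or 4 (0.0604).

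The other tested receptors did not pass. Grin3a, an NMDA subunit gene whose product binds glycine, had 23.4 ± 3.44 and 20.4 ± 1.43 CPM (95% interval of the log2 fold change -0.46 to 0.07). Grik3, a kainate subunit gene, had 3.41 ± 1.14 and 5.28 ± 0.982 CPM (0.04 to 1.22, adjusted p = 0.167). Grid1, of the delta receptor family, Grm5, of group I, and Grm3, of group II, had means of 0.607 to 4.44 CPM and intervals that spanned 0. None of the Grin2 genes, which supply the glutamate-binding subunits of NMDA receptors, reached the filter. Grin2b, Grm2 and Grm6 had no count in any library, which allows a level of up to 0.102 to 0.195 CPM at 3 counts, before TMM scaling. Kpna2, an importin gene that most cells use, was also listed at 0, so a listed 0 need not mean an absent transcript.

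Of 20 auxiliary subunit genes, which encode proteins that ride on AMPA and kainate receptors, 16 were tested; 1 rose and none fell, with 2 higher and 1 lower by DESeq2 and 1 in each direction by limma-voom and with the block. The gene that rose was Neto2, an auxiliary subunit of kainate receptors, at 24.8, 27.4, 28.7 and 26.7 CPM in naive and 34.3, 51.2, 36.9 and 39.5 CPM in injury libraries (log2 fold change 0.59 ± 0.12, adjusted p = 0.00127). Its groups did not overlap, and its fold change was above 0 while that of Grik1, the most abundant kainate gene, was below 0. Cnih2, the gene of a cornichon protein of AMPA receptors, had 9.01 ± 1.40 and 5.67 ± 1.73 CPM (adjusted p = 0.0527). It passed as lower with the block (0.0323), by DESeq2 (0.0332) and limma-voom (0.0286), with library totals (0.0333), under both other filters (0.0422 and 0.0425), and when naive replicate 1 (0.0379) or injury replicate 3 (0.01003) was left out. Its highest adjusted p over the alternatives was 0.164. Shisa6, also an AMPA receptor partner, had 0.754 ± 0.120 and 2.20 ± 1.34 CPM (adjusted p = 0.0746, but 0.0306 by DESeq2, 0.0183 without injury replicate 1 and 0.0162 without both libraries of number 1), and Gsg1l had 5.09 ± 1.55 and 3.49 ± 0.537 CPM. The median log2 fold change of the auxiliary genes was -0.11.

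Of 27 genes of scaffolds and receptor traffic, 22 were tested, 2 rose and none fell, with 1 called lower by DESeq2, limma-voom and the block. Dlgap4, a protein of the postsynaptic scaffold, rose from 99.3 to 109.7 CPM in naive to 126 to 131 CPM in injury libraries (log2 fold change 0.29 ± 0.07, adjusted p = 0.00337). Nptx2, a secreted pentraxin that clusters AMPA receptors, rose from 103 to 120.3 CPM to 124 to 148 CPM (0.27 ± 0.07, adjusted p = 0.0154). The Nptx2 call was lost without naive replicate 2 (0.0714), 3 (0.0580) or 4 (0.0516), without injury replicate 3 (0.0956) and with library totals (0.0596). The gene called lower by those other fits was Lin7b, a scaffold partner, with 34.5 ± 3.64 and 27.7 ± 3.30 CPM (adjusted p = 0.0687, and 0.0424 with the block); it also passed with library totals (0.0266), among genes of 5 CPM or more (0.0474), and without naive replicate 1 (0.0321) or injury replicate 4 (0.0422). Dlg2, the PSD-93 gene, had 23.3 ± 3.39 and 29.9 ± 5.46 CPM (0.0958, but 0.0144 without injury replicate 1 and 0.0058 without both libraries of number 1). The median over the tested scaffold genes was -0.10.

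Of 14 genes that supply or clear glutamate, all tested, 6 rose and none fell, with a median log2 fold change of 0.14. These counts were the same with DESeq2, limma-voom and the block. The share of all genes called higher was 8.12%, with 8.98% by DESeq2, 8.12% by limma-voom and 9.13% with the block. Slc38a1, a glutamine transporter gene, rose from 82.3 to 102 CPM in naive to 137 to 173 CPM in injury libraries (log2 fold change 0.73 ± 0.08, adjusted p = 5.79e-07), and Slc38a2, of the same family, from 224 to 268 CPM to 284 to 334 CPM. Glul, glutamine synthetase of satellite glia, rose from 277 to 313 CPM to 400.4 to 419 CPM. Slc1a4 rose from 45.6 to 54.3 CPM to 64.5 to 91.5 CPM; it belongs to the glutamate transporter family but carries neutral amino acids. The groups did not overlap for any of these 4 genes. Every injury library lay above every naive library in 9.8% of the genes tested. The other two that rose were Slc1a2, described with the glial markers, and Slc17a6, the vesicular glutamate transporter VGLUT2 of sensory neurons, which is named because it completes the count. Slc17a6 was at 325 to 355 CPM in naive and 382 to 418 CPM in injury libraries (log2 fold change 0.21, adjusted p = 0.0106). It did not pass with library totals (0.0546) or when injury replicate 2 was left out (0.0589).

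**Figure D4:**
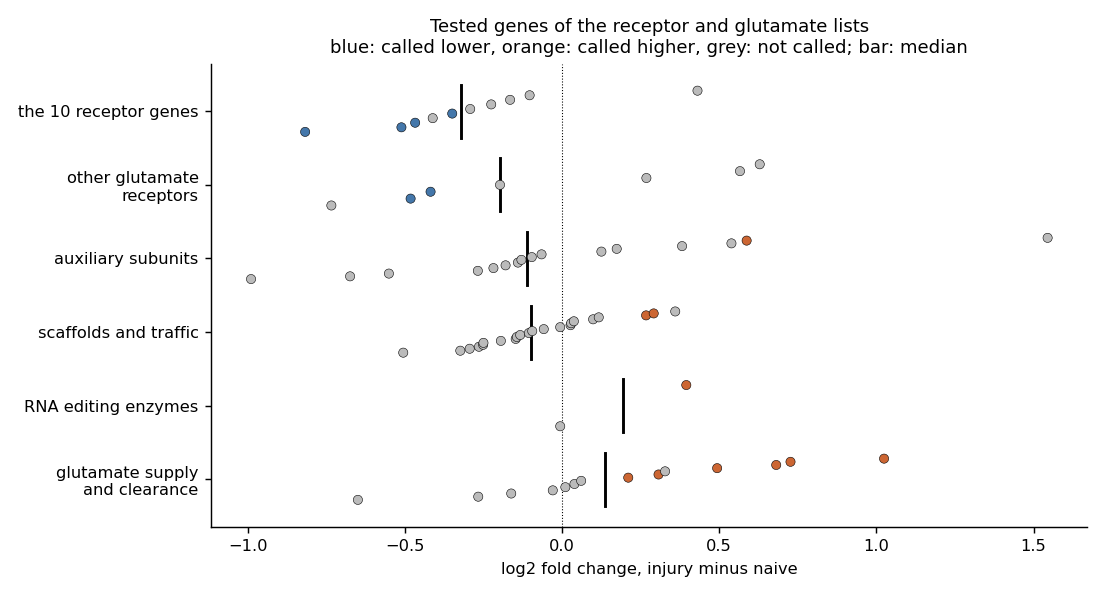
Log2 fold change (injury minus naive) of each tested gene of the receptor set and of 5 related lists; each dot is a gene and the black bar is the list's median. Medians are -0.32 for the 10 receptor genes, -0.20 for other glutamate receptors, -0.11 for auxiliary subunits, -0.10 for scaffolds, 0.19 for the 2 tested editing enzymes and 0.14 for glutamate supply and clearance.

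Markers of the cells in the ganglion were set beside these results. Of 20 sensory neuron markers, all tested, 2 rose (Ret and Elavl3) and 3 fell (Tac1, Ntrk2 and Scn9a), with a median log2 fold change of -0.05; their summed level was 21825 to 23670.2 CPM in naive and 22734 to 25316 CPM in injury libraries. With the block Uchl1, a gene of neuronal protein turnover, was also called higher (adjusted p = 0.0269). The Ntrk2 call was lost without naive replicate 2 (adjusted p = 0.0679), and that of Scn9a without naive replicate 3 (0.0747) or injury replicate 4 (0.0763). Of 9 satellite glia markers 1 rose, Glul, while Fabp7 passed as lower with the block (adjusted p = 8.85e-05). Their sum was 1360.2 to 1718 CPM and 1498 to 1731 CPM. Of 9 myelinating Schwann cell markers edgeR called 0, with 1 at an unadjusted p under 0.05 and 0 by DESeq2 and limma-voom. The median log2 fold change of these 9 markers was nonetheless -0.54. Their sum varied between libraries, from 746 to 1111 CPM in naive and from 721 to 927 CPM in injury libraries.

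Macrophage markers summed to 10.6 to 19.2 CPM and 15.6 to 22.0 CPM, with 0 of 10 called, 3 at an unadjusted p under 0.05 and 0 by DESeq2 and limma-voom. Endothelial markers summed to 97.3 to 136 CPM and 106 to 179.8 CPM, with 0 of 7 called, 1 at an unadjusted p under 0.05, 0 by DESeq2 and limma-voom and 1 with the block. Fibroblast markers summed to 157 to 326 CPM and 171 to 257 CPM, with 1 of 6 called, Pdgfra, from 1.598 ± 0.376 to 3.61 ± 0.362 CPM (adjusted p = 0.0287, but 0.0595 to 0.0750 when naive replicate 2 or 3 or any of injury replicates 2, 3 and 4 was left out). Of 8 markers of spinal cord glia, 5 had no count in any library, among them the myelin genes Mog, Opalin and Mobp, and 1 rose, Slc1a2, a glutamate transporter gene, from 2.56 ± 0.595 to 5.19 ± 1.69 CPM (0.0271, but 0.0670 to 0.148 when naive replicate 2, naive replicate 4, injury replicate 1 or injury replicate 4 was left out, and 0.0629 without both libraries of number 1). Gfap of the same list, a filament gene of astrocytes that injured satellite glia can also express, was below the low-count filter and was not tested. It had 3, 0, 0 and 0 counts in the naive libraries and 20, 14, 9 and 37 counts in the injury libraries, which did not overlap. The part of any of these cell types in the receptor results was not tested.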

How the data were processed

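Per the labels, RNeasy Mini total RNA went into the QuantSeq 3′ REV library kit, which primes on the poly(A) tail. The authors deposited 1 table of raw counts, a whole number for each gene symbol and library; the submitters' processing notes name bcl2fastq 2.17, STAR, HTSeq and the builds GRCm38 and mm10, 2 names of 1 assembly. The sources used here give neither annotation nor strand setting. Of 24060 rows, 27 held a date in place of a symbol (0.146% to 0.158% of counts) and were left out. Counting error alone sets the limits given for counts of 0, since PCR copies of a molecule cannot be told apart here. Counts of libraries within a group differed beyond sampling noise for every pair (chi-square over its degrees of freedom 8.09 to 19.2).

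Tests used edgeR 4.0.16 in R 4.3.3: filterByExpr, TMM, robust quasi-likelihood F-test of injury against naive in 8 libraries, Benjamini-Hochberg adjustment over all 13639 genes, without a block. It called 1108 genes higher and 609 lower; scaling by library totals gave 888 and 1001. A standard error is the size of a log2 fold change over the root of its F statistic. As alternatives, DESeq2 1.42.0 and limma-voom (limma 3.58.1) were run, and edgeR with a replicate block, other scalings (DESeq2 size factors, library totals), other filters (none, mean CPM of 5 or more) and libraries left out; the fits were tested on simulated data. The series text has both sides taken from the mice of a repeat, so libraries of 1 number were read as a pair, though no label says that the number is the repeat. Deviations from the group means correlated at 0.0352 to 0.0569 within the 4 pairs and at -0.0840 to 0.0378 between other libraries. P-values measure the spread between these pooled libraries.

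The receptor genes and gene lists were chosen with earlier results of these data known. Named are the 10 genes, the other tested glutamate receptors, up to 4 genes of smallest p per list, and the 3 genes nearest to Gria2 in profile; for cell type lists the text gives only called genes. Mrgprd, Kpna2, Grin1os, Scn9a, Slc17a6, Uchl1, Gfap, the promoter match genes and genes named for a count of 0 fall outside this rule. Single values of some listed genes are not reported here. Motifs are textbook ones; sequences were read from GENCODE M21 transcripts and RefSeq promoters (GRCm38).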

Additional observations from a re-analysis of the deposited data

Results flagged for a closer look

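Among the 20 groups of 4 libraries examined, 1 held a library far from the others: Grik5 in naive replicate 4, at 8.45 CPM against 9.15 to 9.24 CPM in the other naive libraries, a gap of 0.885 of the group's range. Chance alone flags about 1 group in 20. Over all 4 naive libraries, the flagged one included, the coefficient of variation of Grik5 was 4.23%.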

How the results depend on the processing

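The 16 alternatives gave 159 values for the 10 receptor genes; none changed direction, 8 passed the threshold where the reported fit did not (Gria3 and Grik4) and none lost a call. The count of receptor genes called lower was 4 to 6, with 6 under the replicate block and library totals (5.71% and 7.34% of all genes called lower) and 4 to 5 with 1 library left out, where 3.25% to 5.08% of all genes were called lower; the count called higher was 0 throughout. With both libraries of number 1 left out, 5 were called lower (5.21% of all genes), Gria3 among them (adjusted p = 0.0359). The replicate block added Gria3 and Grik4 to the receptor genes called and changed no other receptor call. All genes called numbered 1717, 2024 with the replicate block, and 1299 to 1859 with 1 library left out. Of 960 values for 61 named genes, 26 lost a call, 35 gained one and 7 changed direction. The last were Adar, at a log2 fold change of 0.0091 with the replicate block and -0.11 to 0.070 with 1 library left out, Lum (0.029 with both libraries of number 1 left out), Col3a1 (-0.46 to 0.14 with 1 library left out) and Aqp4 (-0.26 to 0.014 likewise), none of them called; the cause was not tested. Depth limits Grik2 most, at 35 counts in its lowest library.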

Other observations

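Among 10112 other genes at 5 CPM or more on average, those with the log2 CPM profile over the 8 libraries nearest to that of Gria2 were Vasn, G0s2 and Slc52a3. The root mean square difference of the centred profiles was 0.0993, 0.111 and 0.112 on the log2 scale. Vasn, a binder of TGF-beta, was at 13.3 ± 2.37 CPM in naive and 7.59 ± 1.03 CPM in injury libraries (SD, n = 4). G0s2, an inhibitor of lipolysis, was at 20.8 ± 4.05 and 11.9 ± 1.32 CPM, and Slc52a3, a riboflavin transporter gene, at 8.29 ± 1.01 and 4.73 ± 0.435 CPM. These genes were chosen for a profile like that of Gria2, so their lower injury levels follow from the choice and carry no test.

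The RE1 core is held by 17 promoters of 16 genes, of which 10 were tested. Besides Gria2, which prompted the search, the histamine receptor gene Hrh3 fell (4.92 to 2.22 CPM, adjusted p = 0.0165), and Osbp2, a lipid-binding protein gene, rose (17.4 to 32.9 CPM, 3.35e-05), where 4.47% of all genes tested were called lower and 8.12% higher. These genes were looked at after the match in Gria2 was seen.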
